A study of Homo sapiens with 4 samples.

Results

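The platelet-derived growth factor (PDGF) family was followed through its 4 ligand genes, PDGFA, PDGFB, PDGFC and PDGFD, and its 2 receptor genes, PDGFRA and PDGFRB. Members were all probe sets annotated with one of these symbols alone, which gave 15 of 54675 probe sets for 6 of 19775 genes. They were read in KGN cells, an established human cell line from a granulosa cell tumour of the ovary, on 4 Affymetrix HG-U133 Plus 2.0 arrays that hybridise labelled RNA to short probes. The groups were siYT+8Br-cAMP (YAP and TAZ siRNAs at 5 nM each, then 0.5 mM 8Br-cAMP), siYT (the same siRNAs without 8Br-cAMP), siNC+8Br-cAMP (control siRNA at 10 nM, then 0.5 mM 8Br-cAMP) and siNC (control siRNA alone). All cells got fresh medium 48 h after transfection and were kept for another 24 h, and 8Br-cAMP is a cell-permeable analogue of cyclic AMP. YAP and TAZ were always targeted together, so their separate parts cannot be told apart, and all cultures were of the same tumour line. Each group held 1 array. No difference therefore has a replicate check, sizes are given without a test, and the number of arrays limits their precision.

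PDGFs act as dimers joined by disulphide bonds. The A and B chains are cut to their active form inside the cell by proprotein convertases such as furin, while the C and D chains leave the cell latent and are activated outside it by proteases. PDGF receptor alpha binds A, B and C chains and receptor beta binds mainly B and D chains, and the activated receptors signal through lipid kinases, phospholipase C and Ras. In the ovary of mice and rats the receptors are best known from theca and other stromal cells around the follicle. YAP and TAZ are co-activators of TEAD transcription factors that the Hippo pathway restrains, and cyclic AMP is the second messenger of gonadotropins in granulosa cells.

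Values are probe set intensities on a linear scale, and differences are between log2 intensities after values below 62.6, the median of all values, were raised to that floor. A gene was represented by its probe set with the highest mean log2 value, and comparisons covered the 14427 genes that exceeded the floor on 1 array or more. All 6 members were above it on all 4 arrays, PDGFB by a margin of about 1 unit on the siNC+8Br-cAMP array. Of the 15 probe sets, 9 were above it on 4 arrays, 3 on some arrays and 3 on no array. As a measure of error, the SD of a log2 difference between probe sets of 1 gene was 0.39 for siYT minus siNC, 0.54 for siYT+8Br-cAMP minus siNC+8Br-cAMP, 0.37 for siNC+8Br-cAMP minus siNC and 0.53 for siYT+8Br-cAMP minus siYT. It was computed over 3019 genes with 7501 probe sets that exceeded 4 times the floor on every array, and it does not cover variation between cultures.

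The targeted genes were lower on the arrays labelled as knockdown. YAP1 read 1412 in siYT+8Br-cAMP and 1295 in siYT, against 4772 in siNC+8Br-cAMP and 4915 in siNC, and WWTR1, the TAZ gene, read 1154 and 1028 against 7048 and 5366 in the same order. Granulosa markers were present in part: 7 of 10 were above the floor on every array, and NR5A1, AMHR2 and FSHR were below it on all. Of 7 measured theca and stroma markers 6 were above the floor on every array, while CYP17A1, the theca androgen enzyme, was below it on all. The summed intensity of those 7 was 37186 in siYT+8Br-cAMP, 66487 in siYT, 45064 in siNC+8Br-cAMP and 48963 in siNC. Among other cell types, the epithelial markers EPCAM and CDH1 and the endothelial markers CDH5 and VWF were below the floor throughout, and 4 or 5 of 6 pericyte and smooth muscle markers were above it. The endothelial marker PECAM1 was above it on all 4 arrays (233, 185, 162 and 144 in siYT+8Br-cAMP, siYT, siNC+8Br-cAMP and siNC) and TEK in siNC alone (130.5). Of the blood cell markers, PTPRC was above it in siYT+8Br-cAMP alone (80.0) and CD14 in siNC+8Br-cAMP and siNC (129.6 and 94.3). The siYT+8Br-cAMP array had the highest ratio of 3' to 5' signal (1.35 for ACTB, against 1.06 to 1.14 on the other 3), a ratio used as a sign of less complete RNA. In such bulk RNA, fewer cells that express a gene and less RNA per cell cannot be told apart.

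After knockdown, PDGFD and PDGFRB were higher both without and with 8Br-cAMP, and PDGFRA was higher without it. PDGFA was lower in every knockdown and 8Br-cAMP comparison, PDGFC stayed within 1.21-fold in all 4 comparisons by its representative probe set, and PDGFB lay close to the floor. In siYT against siNC, 3 members were at least 2-fold higher (7.30% of all genes compared) and 1 lower (6.05%). In siYT+8Br-cAMP against siNC+8Br-cAMP, 3 were higher (6.74%) and 1 lower (9.48%). With 8Br-cAMP, 1 was higher (4.34%) and 1 lower (5.22%) in siNC+8Br-cAMP against siNC, and 0 were higher (5.00%) and 1 lower (9.88%) in siYT+8Br-cAMP against siYT. The family was chosen by its readings on these same 4 arrays, the differences given here, so the shares over all genes stand as background alone and nothing is read from them. The median difference of the 6 members was 0.86, 0.67, -0.12 and -0.11 in the 4 comparisons in that order, and that of all genes was 0.00 in each.

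**Figure D1:**
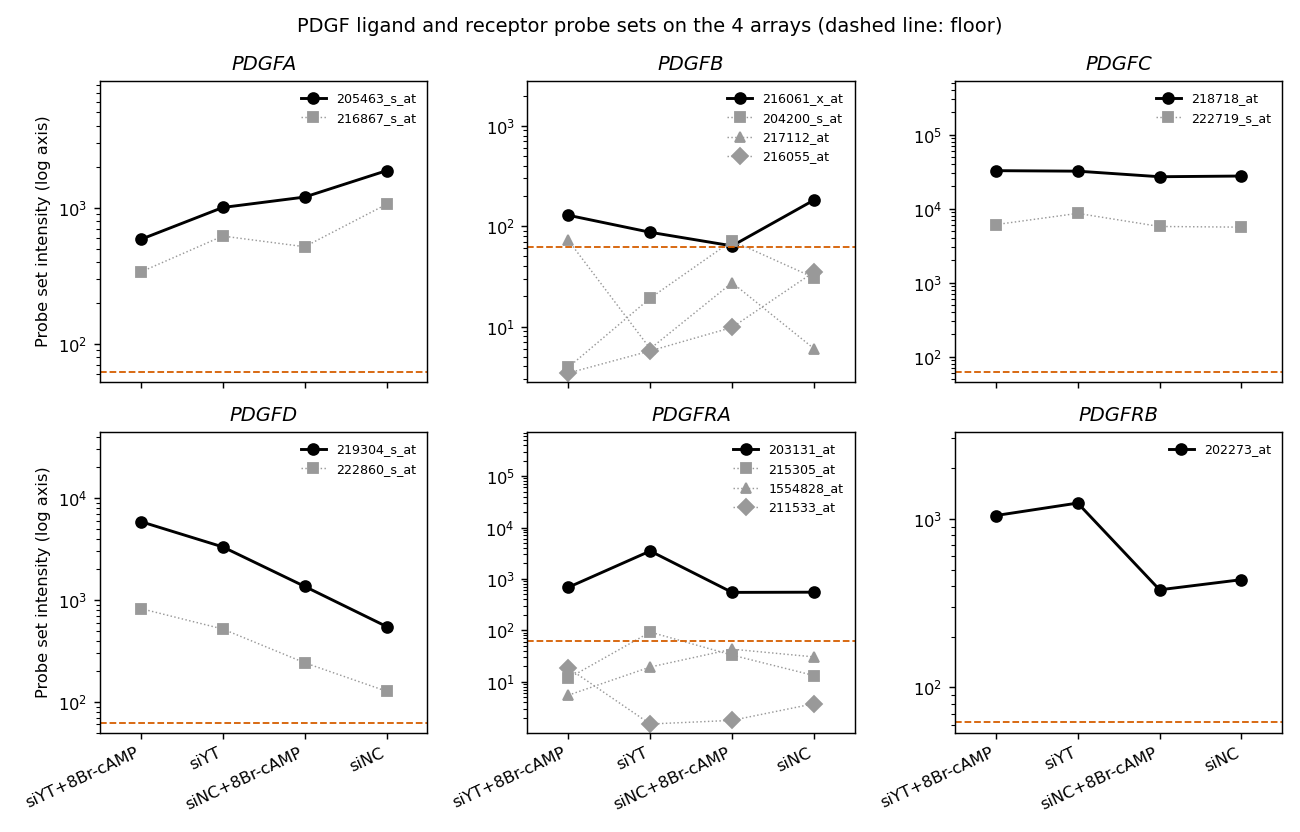
Intensity of every PDGF probe set on the 4 arrays, on a log axis, with 1 panel per gene; black points are the representative probe set, grey points the others, lines join the readings of 1 probe set, and the dashed line is the floor of 62.6. PDGFD stands in the same order on both of its probe sets, PDGFRA stands highest in siYT, and the PDGFB points lie near or below the floor.

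Among the ligands, PDGFD was the one with higher values after both treatments. PDGFD encodes the chain that is secreted latent and, once its CUB domain is removed by urokinase or matriptase, binds receptor beta. Its representative probe set (219304_s_at) read 5872 in siYT+8Br-cAMP, 3317 in siYT, 1359 in siNC+8Br-cAMP and 549 in siNC. The other probe set (222860_s_at) read 823, 519, 242 and 127 on the arrays in the same order. Both rank the arrays identically, with each treatment alone above siNC and the combination highest. The knockdown difference was 2.59 without 8Br-cAMP (6.04-fold higher) and 2.11 with it (4.32-fold), 6.69 and 3.93 times the SD between probe sets. By the other probe set it was 4.08-fold and 3.40-fold. The 8Br-cAMP difference of PDGFD was 1.77-fold after knockdown and 2.48-fold with control siRNA, and 1.59-fold and 1.90-fold by the other probe set. The combination against siNC gave a 10.7-fold difference, and in that comparison 2 members, PDGFD and PDGFRB, were at least 2-fold higher (10.8% of all genes) and 1, PDGFA, lower (13.8%). The difference of differences, siYT+8Br-cAMP minus siNC+8Br-cAMP less siYT minus siNC, was -0.48, less than the SD between probe sets of 0.60 for that quantity. Counted from the highest among 14427 genes, PDGFD ranked 35 for siYT minus siNC and 57 for siYT+8Br-cAMP minus siNC+8Br-cAMP.

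PDGFA, which encodes the A chain that binds receptor alpha, had the opposite order. It read 585 in siYT+8Br-cAMP, 1003 in siYT, 1197 in siNC+8Br-cAMP and 1869 in siNC by 205463_s_at. By 216867_s_at it read 337, 619, 517 and 1059 in the same order. Both probe sets were lowest in siYT+8Br-cAMP and highest in siNC, while siYT and siNC+8Br-cAMP changed places between them. Knockdown differences were -0.90 without and -1.03 with 8Br-cAMP (1.86-fold and 2.04-fold lower), and 1.71-fold and 1.53-fold lower by the other probe set. For 8Br-cAMP they were -0.64 with control siRNA and -0.78 after knockdown (1.56-fold and 1.71-fold lower). Of these 4 comparisons, the representative probe set passed 2-fold only in siYT+8Br-cAMP against siNC+8Br-cAMP, and the other only in siNC+8Br-cAMP against siNC (2.05-fold lower), so for a single treatment the 2-fold call depends on the probe set, while the direction was lower in all 8 differences. The combination against siNC was past 2-fold on both probe sets (3.19-fold and 3.14-fold lower).

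PDGFC, whose latent chain is activated by tissue plasminogen activator and binds receptor alpha, read 32581 in siYT+8Br-cAMP, 32083 in siYT, 26977 in siNC+8Br-cAMP and 27568 in siNC. The 4 arrays lay within a log2 range of 0.27. The other PDGFC probe set read 6079, 8623, 5737 and 5619, with siYT highest (1.53-fold above siNC).

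PDGFB encodes the B chain, which binds both receptors. Its representative probe set (216061_x_at, whose suffix marks probes that can match other transcripts) read 128.5 in siYT+8Br-cAMP, 87.0 in siYT, 63.7 in siNC+8Br-cAMP and 182 in siNC. The other 3 PDGFB probe sets were below the floor on 3 or 4 arrays, and their highest reading was 72.3. The 2-fold calls of PDGFB (-1.07 in siYT minus siNC, 1.01 in siYT+8Br-cAMP minus siNC+8Br-cAMP and -1.52 in siNC+8Br-cAMP minus siNC) therefore rest on 1 dim probe set. Where another probe set was above the floor on 1 array, 204200_s_at (71.6 in siNC+8Br-cAMP) went the other way, at least 1.14-fold lower in siYT+8Br-cAMP than in siNC+8Br-cAMP and at least 1.14-fold higher in siNC+8Br-cAMP than in siNC. The probe set 217112_at (72.3 in siYT+8Br-cAMP) went the same way, at least 1.15-fold higher in siYT+8Br-cAMP than in siNC+8Br-cAMP.

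Of the receptors, PDGFRA had the larger knockdown difference without 8Br-cAMP and PDGFRB had about the same difference in both states. PDGFRA, a receptor tyrosine kinase that marks mesenchymal and stromal cells in many tissues, read 687 in siYT+8Br-cAMP, 3493 in siYT, 548 in siNC+8Br-cAMP and 553 in siNC by 203131_at. One array, siYT, stands apart from the other 3, which lie within 1.25-fold of each other. The siYT value was 6.31-fold above siNC (log2 2.66, 6.86 times the SD between probe sets), and siYT+8Br-cAMP was 1.25-fold above siNC+8Br-cAMP (0.33). With 8Br-cAMP, PDGFRA was 5.08-fold lower after knockdown (-2.34) and differed by -0.01 with control siRNA. Its difference of differences was -2.33, which was 3.89 times the SD between probe sets and ranked 79 from the lowest among 14427 genes. In that quantity 1 member was at least 2-fold lower (9.56% of all genes) and 1, PDGFB, higher (5.39%). A second PDGFRA probe set, 215305_at, read 92.7 in siYT and was below the floor on the other arrays (11.7, 33.1 and 13.3 in siYT+8Br-cAMP, siNC+8Br-cAMP and siNC), which is at least 1.48-fold. The remaining 2 were below the floor on all arrays. The summed theca and stroma markers were also highest in siYT, and their part in the PDGFRA reading was not tested. Of the 6 compared genes of that list, 3 were at least 2-fold higher and 0 lower in siYT against siNC: DCN (6.46-fold), LUM (12.1-fold) and COL1A2 (2.03-fold). The collagen genes COL1A1 and COL1A2 made up most of the sum. COL1A1 read 6926, 36702, 28686 and 35932 in siYT+8Br-cAMP, siYT, siNC+8Br-cAMP and siNC, and COL1A2 read 25321, 25009, 15441 and 12317. In siYT+8Br-cAMP against siYT, 0 of the 6 were at least 2-fold higher (5.00% of all genes) and 1, COL1A1, was lower (9.88%). Between those arrays the other compared genes of the list differed by -0.29 (DCN) to 0.33 (INSL3), and PDGFRA by -2.34.

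PDGFRB, the receptor that marks pericytes and other mural cells, read 1045 in siYT+8Br-cAMP and 1239 in siYT, against 379 in siNC+8Br-cAMP and 436 in siNC. Each knockdown array was above each control siRNA array. The difference was 1.51 without 8Br-cAMP (2.85-fold higher) and 1.46 with it (2.76-fold), 3.89 and 2.72 times the SD between probe sets. With 8Br-cAMP it differed by -0.20 with control siRNA and -0.25 after knockdown, and the difference of differences was -0.05. PDGFRB has 1 probe set on the array, so no second reading exists here. The stromal proteoglycan genes DCN and LUM were also higher on both knockdown arrays. They are 2 of the 6 compared theca and stroma genes. Without 8Br-cAMP, 3 of these were at least 2-fold higher after knockdown (7.30% of all genes) and 0 lower (6.05%). With it, 3 were higher (INSL3, DCN and LUM, against 6.74% of all genes) and 1, COL1A1, was lower (9.48%). DCN read 876 in siYT+8Br-cAMP and 1068 in siYT, against 279 in siNC+8Br-cAMP and 165 in siNC, and LUM read 3698 and 3355 against 434 and 276 in the same order. Of the 5 compared pericyte and smooth muscle genes, 0 were at least 2-fold higher in either knockdown comparison. In siYT+8Br-cAMP against siNC+8Br-cAMP 1, DES, was lower, by at least 2.67-fold. DES was above the floor in siNC+8Br-cAMP alone (167). MCAM was higher by 0.73 without and 0.70 with 8Br-cAMP. It read 32970 in siYT+8Br-cAMP and 17536 in siYT, against 20343 in siNC+8Br-cAMP and 10602 in siNC. RGS5 read 455 and 578 against 570 and 392 in the same order. The knockdown differences without and with 8Br-cAMP were 0.28 and -0.53 for NOTCH3 and -0.04 and 0.19 for CSPG4. The medians of the 5 genes were 0.28 and -0.33. The part of these stromal and pericyte genes in the PDGFRB difference was not tested.

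Taking both knockdown comparisons, 2 of 6 members (PDGFD and PDGFRB) were at least 2-fold higher in each, as were 2.38% of all genes, and 0 were lower in each (2.81%). Taking both 8Br-cAMP comparisons, 0 were higher in each (1.46%) and 0 lower in each (2.08%). The knockdown comparisons use separate arrays, but each of them shares arrays with the 8Br-cAMP comparisons.

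**Figure D2:**
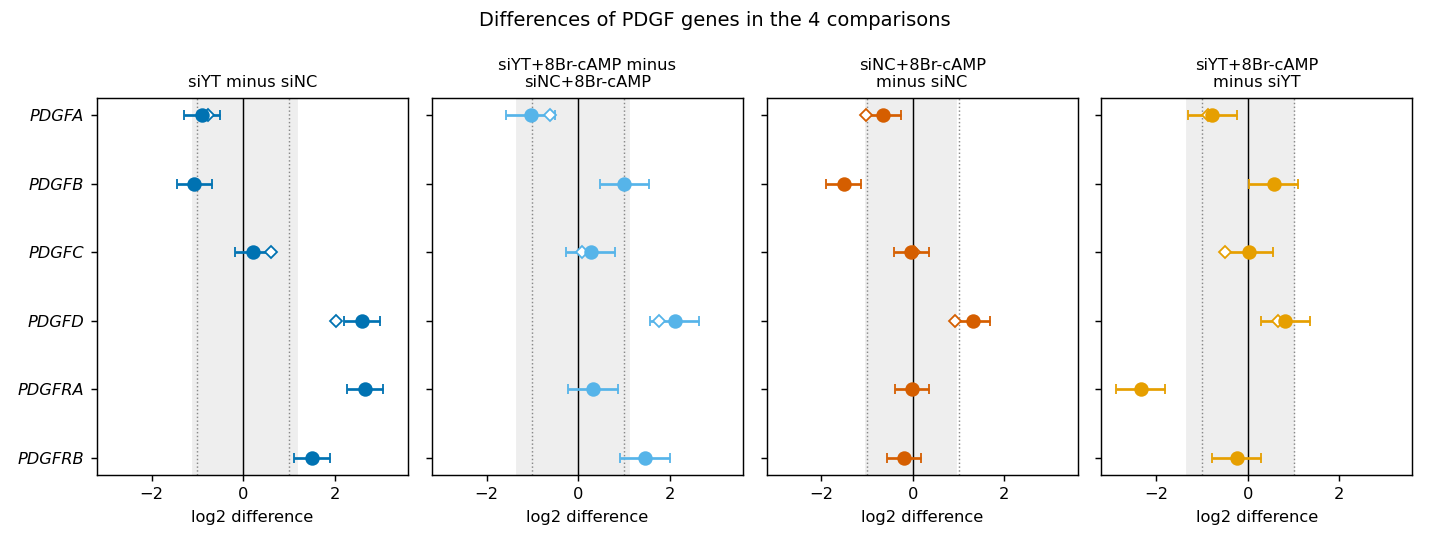
Log2 difference of each PDGF gene in the 4 comparisons; filled points are the representative probe set with bars of 1 SD between probe sets, open diamonds are other probe sets above the floor in both groups, dotted lines mark 2-fold and the grey band holds the central 90% of all genes. PDGFD and PDGFRB lie right of the band in both knockdown panels, and PDGFRA does so without 8Br-cAMP alone.

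**Figure D3:**
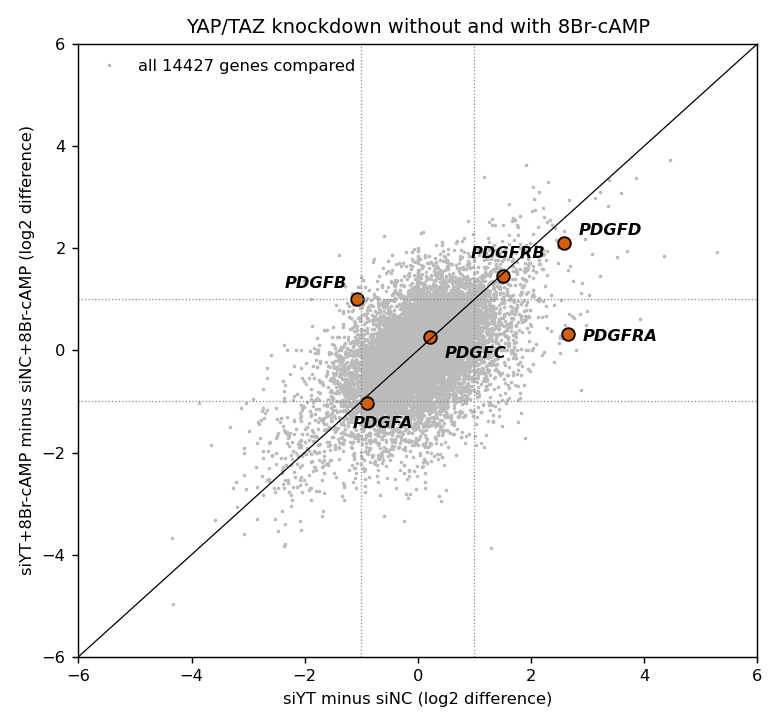
Knockdown difference without 8Br-cAMP (x axis) and with it (y axis) on the log2 scale for all 14427 genes compared (grey) and the 6 PDGF genes (orange); the solid line marks equal differences and dotted lines mark 2-fold. PDGFRB (1.51 and 1.46) lies on the line, PDGFD (2.59 and 2.11) near it, and PDGFRA (2.66 and 0.33) far below it.

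The promoter letters of the 3 genes that were at least 2-fold higher in siYT than in siNC are shown. The reason is that TEAD factors, the DNA-binding partners of YAP and TAZ, and the cyclic AMP factor CREB each have a known recognition motif. RefSeq's promoter table (GRCh38.p14) held 8 starts for 4 of the members, 4 for PDGFA, 2 for PDGFRA and 1 each for PDGFD and PDGFRB, and promoters of PDGFB and PDGFC were not analysed here. The 250 bases before each start were searched on both strands for the TEAD motif GGAATG, for the full cyclic AMP response element TGACGTCA, and for its core TGACG, which lies within the full element. Capitals below mark a match. The PDGFD sequence is chr11:104164148-104164397 on the minus strand. The PDGFRA sequences are chr4:54229043-54229292 and chr4:54233710-54233959 on the plus strand, and the PDGFRB sequence is chr5:150155846-150156095 on the minus strand.
PDGFD: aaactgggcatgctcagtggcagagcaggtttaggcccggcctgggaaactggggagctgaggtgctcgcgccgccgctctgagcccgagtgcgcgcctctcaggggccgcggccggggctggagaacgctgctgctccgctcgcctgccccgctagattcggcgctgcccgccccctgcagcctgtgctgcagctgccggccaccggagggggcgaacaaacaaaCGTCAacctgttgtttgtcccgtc
PDGFRA, upstream start: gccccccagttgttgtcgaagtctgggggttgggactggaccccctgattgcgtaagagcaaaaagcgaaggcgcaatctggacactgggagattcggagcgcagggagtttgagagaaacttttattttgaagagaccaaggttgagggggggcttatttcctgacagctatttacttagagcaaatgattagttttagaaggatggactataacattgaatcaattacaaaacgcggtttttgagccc
PDGFRA, downstream start: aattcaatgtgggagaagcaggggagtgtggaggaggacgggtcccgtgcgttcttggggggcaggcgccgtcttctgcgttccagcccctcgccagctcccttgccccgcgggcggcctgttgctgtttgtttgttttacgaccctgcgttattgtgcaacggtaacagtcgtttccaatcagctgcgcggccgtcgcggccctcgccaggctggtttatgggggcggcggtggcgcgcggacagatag
PDGFRB: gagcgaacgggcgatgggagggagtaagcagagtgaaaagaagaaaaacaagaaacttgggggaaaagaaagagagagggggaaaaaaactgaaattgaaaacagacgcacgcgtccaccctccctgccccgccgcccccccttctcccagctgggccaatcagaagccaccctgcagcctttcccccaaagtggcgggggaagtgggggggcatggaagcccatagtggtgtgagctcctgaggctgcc
The core TGACG was found, on the opposite strand, 20 to 24 bases before the PDGFD start, and at 1 of the 4 PDGFA starts. GGAATG and TGACGTCA were found in 0 of the 8 windows. Over all 35116 promoters in the table, 21.2% held TGACG, 11.9% held GGAATG and 1.65% held TGACGTCA in the same 250 bases. A match of letters is a description and not a binding site, and a window without one says nothing of more distant elements.

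Genes with the most similar pattern were sought by the Euclidean distance between log2 values centred on each gene's mean over the 4 arrays, among genes above the floor on all arrays. The nearest to PDGFD was CEP126 (distance 0.15), which read 788 in siYT+8Br-cAMP, 473 in siYT, 194 in siNC+8Br-cAMP and 85.6 in siNC. EMC10 (0.39) and B3GNT9 (0.43) followed. For PDGFRA the nearest were DACT1 (0.52), SORCS3 (0.60) and GUCY1B1 (0.61), and DACT1 read 133, 997, 139 and 174 on the arrays in that order. SLC2A5 (0.08), TNRC6C (0.10) and PLOD1 (0.14) were nearest to PDGFRB, and DSN1 (0.09), PSG2 (0.09) and DENND2D (0.10) to PDGFA. HPS4 (0.15), LOC374443 (0.19) and ADORA2B (0.25) were nearest to PDGFB. PDGFC varied too little to be compared in this way. These are descriptions over 4 arrays, and many genes share any pattern of so few points.

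Around the ligands, 8 genes for processing and co-receptors were compared, and 1 was at least 2-fold higher and 1 lower in both knockdown comparisons (2.38% and 2.81% of all genes). FURIN, a convertase that matures the A and B chains, read 1132 in siYT+8Br-cAMP and 746 in siYT, against 367 in siNC+8Br-cAMP and 284 in siNC (2.63-fold higher without and 3.08-fold with 8Br-cAMP). PLAU, the urokinase that can activate the D chain, read 294 and 820 against 1403 and 2451 in the same order (2.99-fold and 4.77-fold lower), and its second probe set gave log2 -1.74 and -2.11. PLAU ordered the 4 arrays in the reverse of PDGFD. ST14, which encodes matriptase, read 55.3 in siYT+8Br-cAMP, 67.6 in siYT, 63.3 in siNC+8Br-cAMP and 42.9 in siNC. It exceeded the floor on 2 arrays alone, so its floored log2 differences, within 0.11, do not show whether it changed. The next genes were singled out after their values were seen. PLAT, the tissue plasminogen activator that can activate the C chain, read 343 in siYT+8Br-cAMP, 1229 in siYT, 800 in siNC+8Br-cAMP and 986 in siNC, lowest under the combined treatment. LRP1, an endocytic receptor that binds PDGF receptor beta, was higher by 0.95 and 1.12 after knockdown without and with 8Br-cAMP, and by 1.34 and 1.30 on a second probe set. In siYT+8Br-cAMP against siYT, 3 of the 8 were at least 2-fold lower (PLAT, PLAU and NRP1), where 9.88% of all genes were. A second NRP1 probe set gave -0.24 there. The list's medians in the 4 comparisons were 0.55, 0.18, -0.02 and -0.11, where those of all genes were 0.00.

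Of 21 receptor adaptor and effector genes, 17 were compared, and 0 passed 2-fold in one direction in both knockdown or both 8Br-cAMP comparisons. Over all genes, 2.38% were higher and 2.81% lower in both knockdown comparisons, and 1.46% and 2.08% in both 8Br-cAMP comparisons. In siYT against siNC 1 was higher and 0 lower (7.30% and 6.05% of all genes), and in siYT+8Br-cAMP against siNC+8Br-cAMP 1 was higher and 2 lower (6.74% and 9.48%). SRC, a kinase recruited by both receptors, read 241 in siYT+8Br-cAMP, 690 in siYT, 566 in siNC+8Br-cAMP and 999 in siNC, lower in each of the 4 comparisons (-0.53, -1.23, -0.82 and -1.52). A dimmer SRC probe set stayed between 128 and 159 on all arrays. PIK3R3, a regulatory subunit of phosphoinositide 3-kinase, was higher in siYT than in siNC (1.77) and differed by -0.26 between siYT+8Br-cAMP and siNC+8Br-cAMP. The adaptor NCK2 differed by 0.82 and -0.73 in those comparisons. PIK3CB, PIK3R1 and CRKL stayed within 0.31 in all 4. Among 8 of 10 genes for receptor down-regulation 0 passed 2-fold in any of the 4 comparisons. Over all genes, 13.3%, 16.2%, 9.56% and 14.9% did so in the 4 comparisons in order, so a count of 0 among 8 says little. By mean absolute difference over the 4 comparisons the phosphatase gene PTPN2 was first (-0.79, -0.88, -0.82 and -0.91, and -0.47 to -0.54 on a second probe set), followed by PTPN1 (-0.18, -0.92, 0.77 and 0.03) and the endosomal sorting gene STAM (-0.49, -0.55, -0.20 and -0.26). The medians of all compared genes of these lists were between -0.31 and 0.18.

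**Figure D4:**
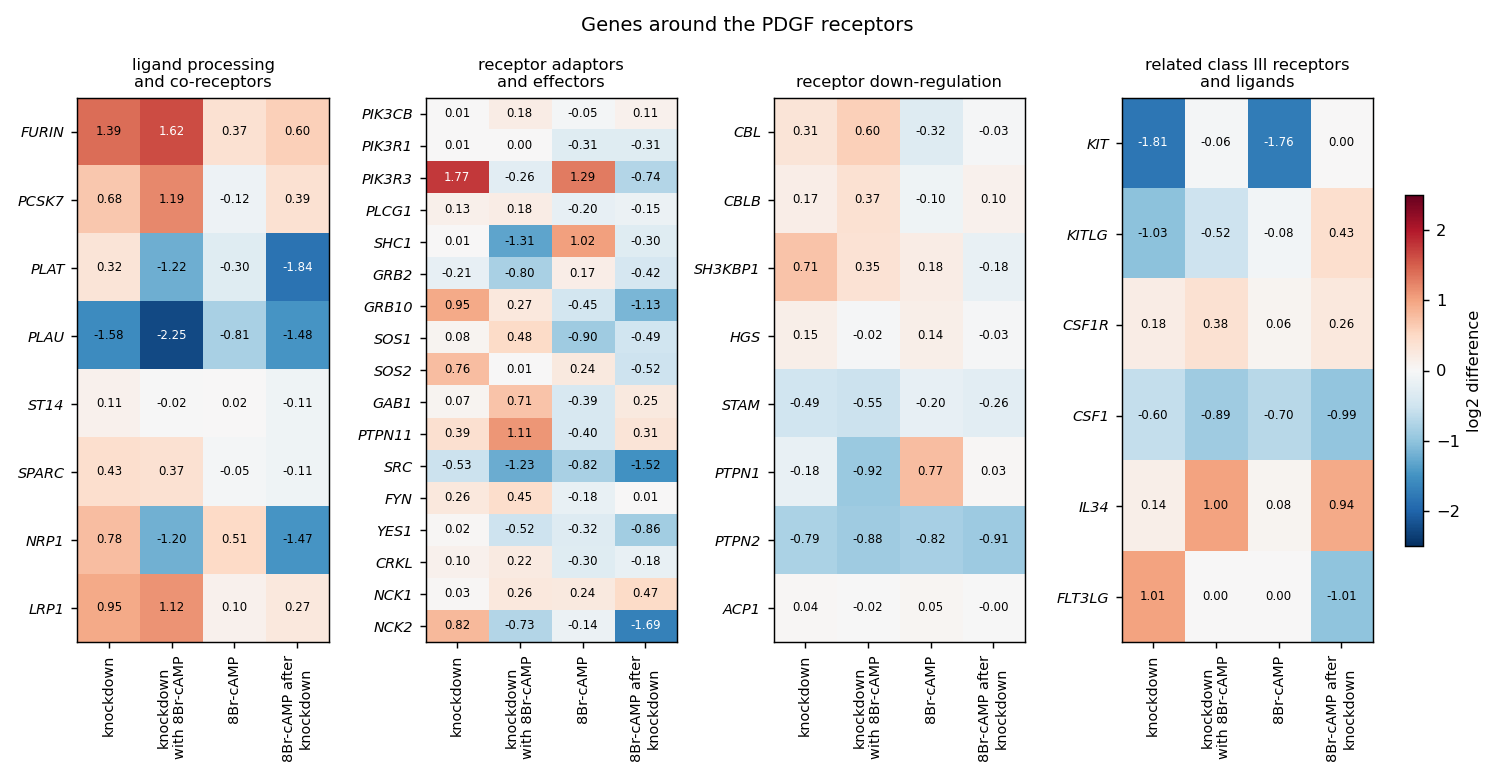
Log2 differences of the compared genes of 4 lists around the PDGF receptors (rows) in the 4 comparisons (columns: siYT minus siNC, siYT+8Br-cAMP minus siNC+8Br-cAMP, siNC+8Br-cAMP minus siNC, siYT+8Br-cAMP minus siYT), coloured red for higher and blue for lower. FURIN and LRP1 are red and PLAU blue in both knockdown columns, while most adaptor and down-regulation genes stay pale.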

How the data were processed

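The deposited values are linear intensity values per probe set that the authors made with RMA in Affymetrix Expression Console, per the submitters' processing notes (no version given in the sources used here). Unlike RMA output, which is logarithmic, they reach down to 0.0806, their distribution differs between arrays, and each array has a 2% trimmed mean of 499.9. The background correction behind them stays unknown, and dim values are uncertain.

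Each value below the floor of 62.6 (log2 5.97) was raised to it before log2 was taken, with no further normalization. Of 54675 probe sets, 41097 had 1 symbol and were used, 1801 had several and 11777 had none here, and gene identifiers matched 41043 and changed 0 symbols. Fold changes against a floored value are lower bounds. The threshold for calling a gene higher or lower was 2-fold. Named genes were the members, the siRNA targets, the 3 genes most similar to each varying member, and list genes at 2-fold in both knockdown or both 8Br-cAMP comparisons, or else the 3 with the largest mean absolute difference. The members, lists and rules were chosen with earlier results of these data known. Alternatives were another floor, log2(value + 16), the mean over probe sets, exclusion of probe sets by suffix, quantile or cyclic loess normalization (limma 3.58.1, R 4.3.3) and a 1.5-fold threshold. Differences were computed with pandas 2.3.3 and tested on simulated data.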

Additional observations from a re-analysis of the deposited data

Results flagged for a closer look

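Some genes went opposite ways in the presence and absence of the other treatment, each time by more than the SD between probe sets, and these differences were not tested, since each group held 1 array. PDGFB differed by 1.01 in siYT+8Br-cAMP minus siNC+8Br-cAMP and by -1.07 in siYT minus siNC, and by 0.56 in siYT+8Br-cAMP minus siYT and -1.52 in siNC+8Br-cAMP minus siNC, a difference of differences of 2.08 on a probe set near the floor. The SD between probe sets came from those above 4 times the floor. The PDGFB probe set did not reach that level, so the SD does not cover its error. NRP1, a co-receptor for PDGF and VEGF ligands, differed by -1.20 and 0.78 after knockdown with and without 8Br-cAMP, and by -1.47 and 0.51 for 8Br-cAMP after knockdown and with control siRNA, a difference of differences of -1.98. A second NRP1 probe set gave -0.34 for that quantity. It was higher after knockdown both with 8Br-cAMP (0.13) and without (0.47), so it did not show the change of sign. PIK3R3 differed by -0.74 for 8Br-cAMP after knockdown and 1.29 with control siRNA (-2.04), whereas a second PIK3R3 probe set, near the floor, gave 0.65 for 8Br-cAMP after knockdown and 0.65 for the difference of differences. NCK2 differed by -0.73 and 0.82 after knockdown with and without 8Br-cAMP (-1.55). All 4 rest on the siYT+8Br-cAMP array, the one with the highest ratio of 3' to 5' signal. So do the PDGFRA values of -2.34 for siYT+8Br-cAMP minus siYT and -2.33 for the difference of differences. The part of that array was not tested. Without it, only siYT minus siNC and siNC+8Br-cAMP minus siNC remain, and no difference of differences can be formed.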

How the results depend on the processing

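Of 170 recomputed member differences, 154 moved by less than the SD between probe sets, 16 by more, and 0 of those past 2-fold changed sign. The 16 were all of PDGFB (13) or PDGFRA (3). PDGFD, PDGFRB, PDGFA and PDGFC moved by less than that SD under every alternative that gave them a value: the knockdown differences ranged from 2.31 to 2.65 and 1.94 to 2.14 for PDGFD and from 1.48 to 1.53 and 1.43 to 1.54 for PDGFRB, without and with 8Br-cAMP. With the mean over all probe sets, which averages in 3 dim ones, PDGFRA gave 0.81 for siYT minus siNC, -0.73 for siYT+8Br-cAMP minus siYT and -0.72 for the difference of differences. Counts of members at 2-fold were 4, 4, 2 and 1 in the 4 comparisons and 2 for the difference of differences. Shares of all genes were 13.3%, 16.2%, 9.56%, 14.9% and 15.0% in that order, and those of the alternatives follow in brackets. The member counts became 2, 2, 1, 0 and 0 with the mean over probe sets (8.31%, 9.15%, 5.55%, 8.07% and 7.99%). Without suffixed probe sets, which left 4 members and no value for PDGFA and PDGFD, they were 2, 1, 0, 1 and 1 (13.8%, 16.7%, 10.1%, 15.8% and 16.4%). A floor at the 75th percentile (388.7) gave 3, 3, 1, 1 and 1, since PDGFB was floored throughout. With log2(value + 16) the counts were 3, 3, 2, 1 and 2. At 1.5-fold, 5, 4, 3 and 3 members passed in the 4 comparisons (32.8%, 37.8%, 26.8% and 36.4%). The 2.04-fold call of PDGFA with 8Br-cAMP was lost under quantile and cyclic loess normalization, where 3 members passed in place of 4 (16.1% and 15.8%). Over all genes, the share past 2-fold in siYT minus siNC was 13.3%, against 8.31% with the mean over probe sets, 17.9% without a floor and 32.8% at 1.5-fold. No paired analysis was possible because each group held 1 array. Dim probe sets, those of PDGFB above all, limit what can be read.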

Other observations

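The PDGF receptors belong to the class III receptor tyrosine kinases, and their relatives were read in the same cells. Of 7 such receptors and ligands, 6 were compared, and 0 passed 2-fold in one direction in both knockdown or both 8Br-cAMP comparisons. Over all genes, 2.38% were higher and 2.81% lower in both knockdown comparisons, and 1.46% and 2.08% in both 8Br-cAMP comparisons. In siYT against siNC, 1 was higher (FLT3LG, 7.30% of all genes) and 2 lower (KIT and KITLG, 6.05%). In siYT+8Br-cAMP against siNC+8Br-cAMP, 1 was higher (IL34, 6.74%) and 0 lower (9.48%). KIT, the stem cell factor receptor, was below the floor in siYT+8Br-cAMP and siYT (13.8 and 13.3), against 65.2 in siNC+8Br-cAMP and 220 in siNC, and siYT was thus at least 3.52-fold below siNC. Its ligand gene KITLG, which granulosa cells are known to express, read 3720 in siYT+8Br-cAMP and 2767 in siYT, against 5348 and 5635 in siNC+8Br-cAMP and siNC. After knockdown, KIT was lower by at least 1.81 on the log2 scale without and at least 0.06 with 8Br-cAMP. KITLG was lower by 1.03 and 0.52. CSF1, the macrophage growth factor, was lower in each of the 4 comparisons (-0.60, -0.89, -0.70 and -0.99), though 1 of its dimmer probe sets was higher after knockdown (0.57 and 1.53). IL34, the other ligand of the CSF1 receptor, read 149.6 in siYT+8Br-cAMP and 71.0 to 78.1 on the other arrays, all near the floor. After knockdown, IL34 was higher by 0.14 without and 1.00 with 8Br-cAMP, and CSF1R by at least 0.18 and by 0.38. FLT3LG was above the floor in siYT alone (125.9) by its representative probe set. FLT3 was below the floor on all arrays, and CSF1R differed by at most 0.38.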
